A study of Mus musculus with 6 samples.

Results

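The 10 cytotoxic effector genes were Gzma, Gzmb, Gzmk, Gzmm, Prf1, Nkg7, Fasl, Ccl5, Eomes and Tbx21, a set of genes by which NK cells and killer T cells are recognised. They were taken by gene name from a table of 54532 genes, and all 10 were present. They were compared between the bone marrow of unloaded mice and of control mice. Unloaded mice were wild type and were kept under hindlimb unloading for 4 weeks, a model of disuse osteoporosis in which the hind limbs bear no weight. Control mice were wild type and were given no unloading. Each group had 3 libraries, made by RNA-seq of total RNA from freshly isolated marrow cells of the femur. Neither strain, age and sex nor any pooling of animals is stated by the labels. Nothing says that libraries of 1 group came from separate animals, so a p-value here gauges spread among samples that may be technical.

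Cytotoxic lymphocytes kill by releasing granules that hold granzymes, a family of serine proteases, together with perforin, which opens the target cell membrane to them. Granzymes are made as inactive precursors that the protease cathepsin C trims to the active form. Killing can also run through Fas ligand, a surface protein that engages the death receptor Fas. The T-box transcription factors T-bet (Tbx21) and Eomesodermin (Eomes) direct the expression of this program, together with Runx3. In bone marrow these genes are known mainly from NK cells and memory CD8 T cells, which are a minority beside the developing granulocytes.

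Each unloaded library had fewer counts than each control library, with 15850986 to 16543465 counts in unloaded and 16727836 to 17775506 in control libraries. The genes Ngp, S100a8 and S100a9 of developing and mature neutrophils had the most counts in the table, as the marrow label implies. The unloaded 1 library stood apart, with a first principal component score of 51.3 against -13.7 to -7.37 for the rest (34.8% of variance). Mitochondrial transcripts took 0.439%, 1.10% and 1.07% of counts in unloaded 1, 2 and 3, against 1.05% to 1.27% in control libraries. Many results are therefore also given without unloaded 1, and a value with no such mention includes it. edgeR put some named genes at an unadjusted p under 0.05 only with it, among them Il2rg, Klra8, Klra3, Ccl3, Fcer1a, Gp9 and Cd4. Of the 10 genes, 9 had enough counts to be tested among 15015 genes, and Gzmk did not.

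Promoters of 4 of the genes are printed here because their regulators, T-box factors and Runx3, belong to the same program and were measured in the same libraries. The sequences are RefSeq's, on build GRCm38.p6, and run 5′ to 3′ from 250 bases before the transcription start to 50 bases after it. Capitals mark the T-box letters GGTGTGA and the Runx letters TGTGGT, read on both strands, so that the reverse complement of the Runx letters also appears in capitals.
Gzma (chr13:113100932-113101231, minus strand): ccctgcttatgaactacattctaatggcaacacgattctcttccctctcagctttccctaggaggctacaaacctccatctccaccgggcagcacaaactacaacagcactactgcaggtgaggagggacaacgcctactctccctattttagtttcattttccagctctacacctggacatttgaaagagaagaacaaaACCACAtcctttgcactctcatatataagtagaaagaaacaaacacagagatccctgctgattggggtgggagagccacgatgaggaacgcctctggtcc
Gzmb (chr14:56262285-56262584, minus strand): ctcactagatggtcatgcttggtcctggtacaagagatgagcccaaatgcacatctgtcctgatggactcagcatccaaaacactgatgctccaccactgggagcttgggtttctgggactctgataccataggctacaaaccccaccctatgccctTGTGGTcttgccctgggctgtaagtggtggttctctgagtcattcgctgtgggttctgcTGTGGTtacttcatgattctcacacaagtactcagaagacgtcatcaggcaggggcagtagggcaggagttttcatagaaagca
Prf1 (chr10:61297586-61297885, plus strand): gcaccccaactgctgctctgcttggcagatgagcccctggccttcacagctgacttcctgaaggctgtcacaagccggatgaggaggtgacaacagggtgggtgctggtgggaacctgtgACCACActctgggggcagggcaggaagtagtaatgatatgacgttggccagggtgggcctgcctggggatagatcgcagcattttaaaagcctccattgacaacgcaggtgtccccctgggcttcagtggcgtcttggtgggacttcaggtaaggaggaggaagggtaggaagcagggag
Nkg7 (chr7:43436888-43437187, plus strand): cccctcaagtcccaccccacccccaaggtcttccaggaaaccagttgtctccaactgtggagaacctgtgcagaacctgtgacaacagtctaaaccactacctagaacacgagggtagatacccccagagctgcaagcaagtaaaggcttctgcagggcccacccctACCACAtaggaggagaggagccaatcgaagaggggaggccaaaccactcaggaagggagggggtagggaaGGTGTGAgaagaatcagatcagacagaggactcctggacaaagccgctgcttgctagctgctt
RefSeq promoters were at hand for 9 of the 10 genes, Gzmm with a pair of starts, which made 10 promoters. Ccl5 was the gene without one. The T-box letters stood in 3 of these 10 promoters, of Gzmk, Gzmm and Nkg7, and in 3.98% of all 32851 promoters of this length. Gzmm held them only at its downstream start, at 79693826, where the deposited gene begins at 79689020. The RefSeq start of Gzmk, a minus strand gene, is at 113180965, far inside the deposited edge at 113225908. In Nkg7 they began 13 bases before the start. The Runx letters stood in 5 of these 10 promoters, of Gzma, Gzmb, Gzmm, Nkg7 and Prf1, and in 16.8% of all promoters. All 4 printed promoters hold the Runx letters, while those of Fasl, Eomes and Tbx21, not printed, hold neither motif. In Gzmb they occurred at 93 and at 34 bases before the start, and in Gzma at 50 bases before it. The RefSeq start of Gzmb lies 74 bases upstream of the deposited gene's edge. These matches describe letters in a window and are not sites of binding.

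No gene of the set passed the test between unloaded and control marrow. Gzma came nearest, with a ratio of summed counts, unloaded over control at equal depth, of 1.96. It was the 1 gene of the 9 at an unadjusted p under 0.05, a mark met by 5.85% of all tested genes, 2.67% of them on the higher side. Levels are given as CPM, read counts scaled to library size, here after TMM scaling, which sets the bulk of genes equal between libraries. Fold changes are log2 values of unloaded over control. By edgeR's quasi-likelihood test 0 of the 9 had an adjusted p under 0.05, where 0% of all tested genes were called. DESeq2 and limma-voom also called 0 of the 9, and each had 1 of the 9 at an unadjusted p under 0.05. Fold changes were positive for 6 of the 9 and negative for 3, beside 51.2% positive over all tested genes. Without unloaded 1 again 0 of the 9 were called and 1, Gzma, was at an unadjusted p under 0.05, where 0.0324% and 8.98% of all genes tested in that fit were. The median fold change of the 9 was 0.24, or 0.089 without unloaded 1, and over all tested genes it was 0.0054, or 0.0027 without unloaded 1. In bulk marrow a larger share of lymphocytes and more RNA per lymphocyte cannot be told apart.

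Granzyme A, the most abundant of the 4 granzymes, cleaves its substrates after basic residues. Gzma (ENSMUSG00000023132, mm10 chromosome 13, 113093825 to 113100981, minus strand) stood at 10.1, 5.30 and 6.98 CPM in unloaded 1, 2 and 3, against 3.95, 3.56 and 3.82 CPM in control 1, 2 and 3. All 3 unloaded libraries lay above all 3 controls, and the unloaded libraries spread more widely. The means were 7.47 ± 2.45 CPM in unloaded and 3.77 ± 0.199 CPM in control marrow (SD, n = 3 each). Its log2 fold change was 0.98 ± 0.26 (SE), with a 95% interval of 0.40 to 1.56. The unadjusted p was 0.00344, which ranked 77 among 15015 genes, and its edgeR adjusted p was 0.658. DESeq2 gave an adjusted p of 0.136. Without unloaded 1 it was 0.70 ± 0.23 (edgeR adjusted p = 0.409). Without the filter on low counts edgeR gave Gzma an adjusted p of 0.0393, where 0.671% of all genes were called. Its estimate and SE there were 0.97 ± 0.27, much as before, while its unadjusted edgeR p was 0.000254. In that fit many genes with high counts had nearly equal SEs, as Srgn and Ctsc did at 0.126. It thus took little account of each gene's own spread between libraries. Over all settings the adjusted p ran from 0.0393 to 0.999.

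Granzyme B is the granzyme that activates caspases in the target cell. Gzmb (ENSMUSG00000015437, chromosome 14, 56258838 to 56262260, minus strand) had 2.04, 2.83 and 1.98 CPM in unloaded 1, 2 and 3, against 1.37, 1.81 and 1.64 CPM in control 1, 2 and 3. The groups did not overlap, but unloaded 3 lay close to control 2. Its log2 fold change was 0.50 ± 0.31 (SE; edgeR adjusted p = 0.896), with a 95% interval of -0.18 to 1.19. The gene rested on 32, 48 and 32 counts in unloaded and 24, 30 and 28 counts in control libraries, so it was measured thinly. Gzma and Gzmb were the 2 genes of the 9 with every unloaded value above every control value, a pattern that 5.46% of all tested genes had (11.9% in either direction). None of the 9 had every unloaded value below every control value, which 6.4% of all tested genes had.

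Granzyme M, known from innate lymphocytes, differed more between the unloaded libraries than between the groups. Gzmm (ENSMUSG00000054206, chromosome 10, 79689020 to 79695261, plus strand) stood at 3.25, 2.95 and 0.802 CPM in unloaded 1, 2 and 3, against 2.17, 1.09 and 1.53 CPM in control 1, 2 and 3. Unloaded 3 was the lowest of the 6 libraries, with 13 counts, and unloaded 1 and 2 were the highest. Its log2 fold change was 0.54 ± 0.48 (SE; edgeR adjusted p = 0.916), 0.23 without unloaded 1 and 0.95 without unloaded 3. Granzyme K, the granzyme of memory CD8 T cells, was too low to test. Gzmk (ENSMUSG00000042385, chromosome 13, 113171608 to 113225908, minus strand) had 10, 7 and 4 counts in unloaded 1, 2 and 3, against 5, 8 and 4 counts in control 1, 2 and 3. The ratio of its summed counts, unloaded over control at equal depth, was 1.29, with an exact 95% interval of 0.649 to 2.61 that covers counting error only. Without the filter on low counts edgeR gave Gzmk a log2 fold change of 0.35 ± 0.77 (SE; adjusted p = 0.957). At this depth a difference within that counting interval could not be seen. Esm1, an endothelial gene on the other strand, lies within its span, and no run of 50 bases was shared between their transcripts. Gzmd, Gzme, Gzmf, Gzmg and Gzmn, granzyme genes that activated mouse killer cells can express, had 0 counts in every library. By counting error alone this allows up to 0.172 to 0.191 CPM per library. They lie near one another on chromosome 14, and sequence shared among them was not checked. Reads aligning to more than 1 of them may have gone uncounted, so 0 counts do not show absence. Gzmc had 0, 1 and 0 counts in unloaded 1, 2 and 3, against 0, 2 and 5 counts in control 1, 2 and 3.

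**Figure D1:**
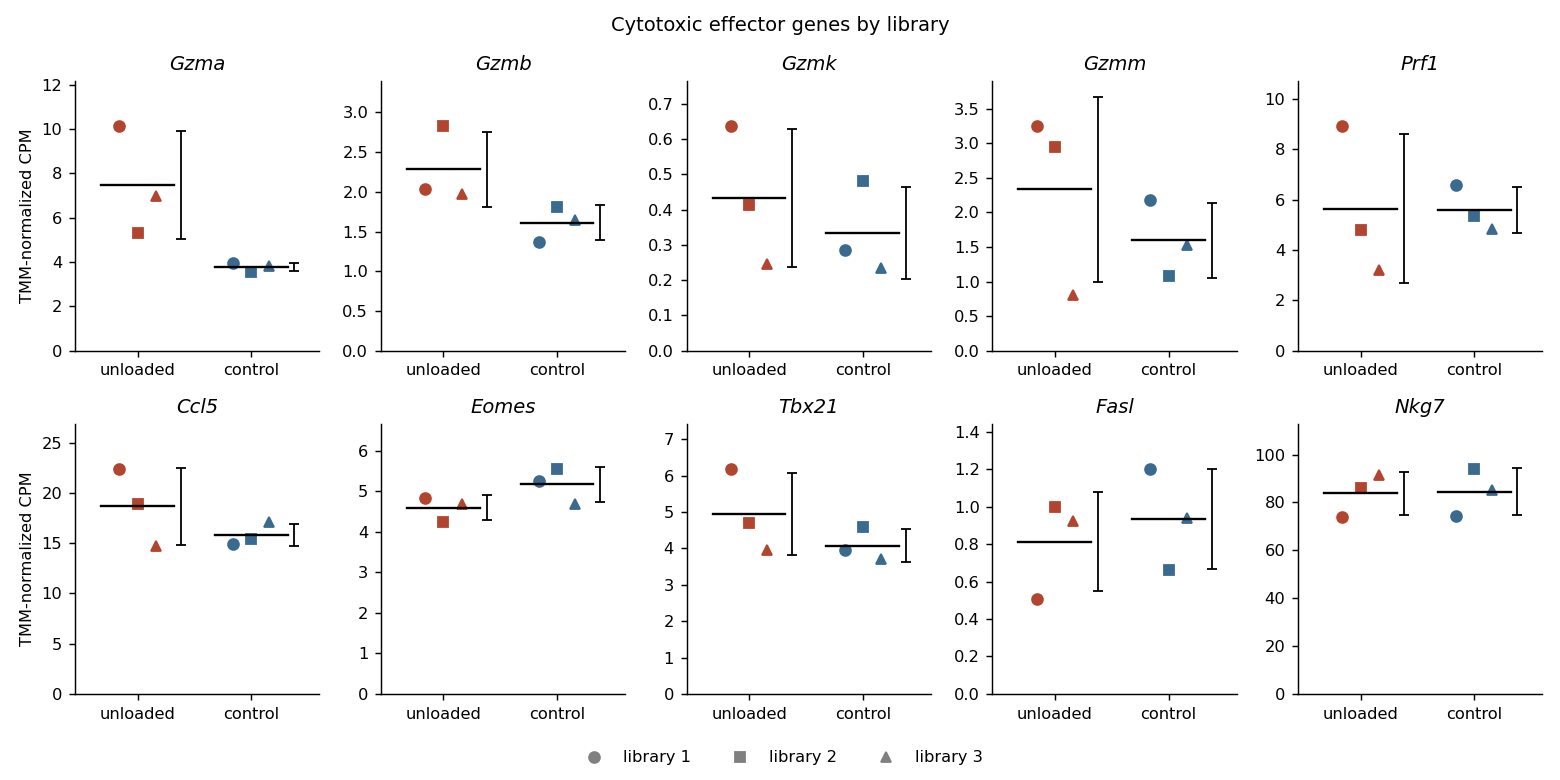
TMM-normalized CPM of each of the 10 cytotoxic effector genes in the unloaded and control libraries. Points are libraries with a shape for each library number, horizontal bars are means and the vertical bars are SD (n = 3 each); Gzma and Gzmb are the genes whose unloaded libraries all lie above the control libraries.

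Perforin showed no shared direction among the unloaded libraries. Prf1 (ENSMUSG00000037202, chromosome 10, 61297833 to 61304680, plus strand) had 8.92, 4.77 and 3.21 CPM in unloaded 1, 2 and 3, against 6.58, 5.36 and 4.82 CPM in control 1, 2 and 3. Unloaded 1 was above every control and the other unloaded libraries were below every control. Its log2 fold change was 0.0098 ± 0.34 (SE; edgeR adjusted p = 0.998) and -0.48 ± 0.26 without unloaded 1 (adjusted p = 0.628). The sign of an estimate so near 0 also turned with limma-voom (-0.11) and in other settings that kept all 6 libraries. Scaled for gene length, the ratio of the Gzma level to the Prf1 level was 2.92, 2.85 and 5.58 in unloaded 1, 2 and 3, against 1.54, 1.70 and 2.04 in control 1, 2 and 3. The groups of this ratio did not overlap, and it was chosen after the values were seen, so it has no test. The share of Gzma in the length-scaled sum of the 4 granzymes overlapped between groups, at 71.1%, 55.3% and 76.8% in unloaded 1, 2 and 3 and 59.8%, 60.1% and 61.7% in control 1, 2 and 3.

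Nkg7 encodes a granule membrane protein needed for efficient granule release, and it was by far the most abundant of the set. Nkg7 (ENSMUSG00000004612, chromosome 7, 43437073 to 43438249, plus strand) stood at 74.0, 86.2 and 91.4 CPM in unloaded 1, 2 and 3, against 74.2, 93.9 and 85.3 CPM in control 1, 2 and 3. The groups covered almost the same range. The log2 fold change was -0.011 ± 0.12 (SE; edgeR adjusted p = 0.997), with a 95% interval of -0.28 to 0.26, and it was 0.0065 under upper-quartile scaling. Among the 9 genes this was the narrowest interval. Nkg7 was lowest in unloaded 1, the library in which Gzma, Gzmm, Prf1, Ccl5 and Tbx21 were highest.

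**Figure D2:**
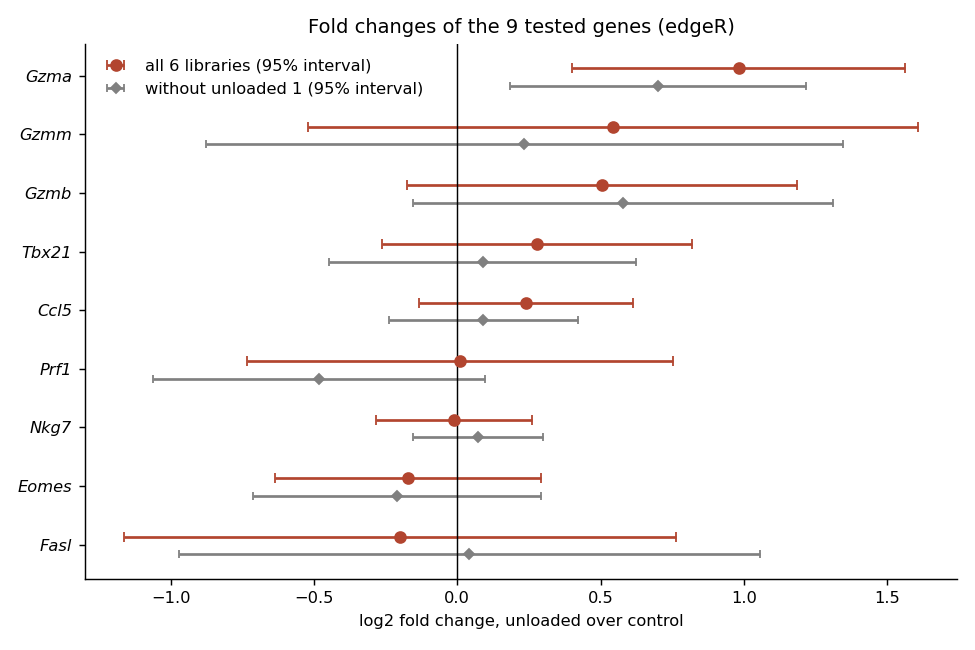
Log2 fold changes of unloaded over control marrow for the 9 tested genes (x axis), from edgeR with all 6 libraries and without the unloaded 1 library. Points are estimates and lines are 95% intervals; the interval of Gzma lies above 0 in both fits, and that of every other gene includes 0.

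Fas ligand and the chemokine CCL5 are the secreted or surface signals of the set. Fasl (ENSMUSG00000000817, chromosome 1, 161780689 to 161788495, minus strand) had 8, 17 and 15 counts in unloaded 1, 2 and 3, against 21, 11 and 16 counts in control 1, 2 and 3. The groups overlapped, with a log2 fold change of -0.20 ± 0.44 (SE; edgeR adjusted p = 0.966) whose sign turned to 0.042 without unloaded 1. CCL5 recruits T cells and other leukocytes. Ccl5 (ENSMUSG00000035042, chromosome 11, 83525778 to 83530518, minus strand) stood at 22.4, 18.9 and 14.8 CPM in unloaded 1, 2 and 3, against 14.9, 15.4 and 17.1 CPM in control 1, 2 and 3. Unloaded 1 and 2 were above every control and unloaded 3 was just below the lowest. The log2 fold change was 0.24 ± 0.17 (SE; edgeR adjusted p = 0.896), 0.091 without unloaded 1 and 0.38 without unloaded 3.

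The pair of T-box factors differed in the sign of their estimates, and each estimate was close to its standard error in size. Tbx21 (ENSMUSG00000001444, chromosome 11, 97098071 to 97115331, minus strand) had 6.18, 4.71 and 3.95 CPM in unloaded 1, 2 and 3, against 3.95, 4.58 and 3.70 CPM in control 1, 2 and 3. Its highest values were in unloaded 1 and unloaded 2, and unloaded 3 lay among the controls. The log2 fold change was 0.28 ± 0.24 (SE; edgeR adjusted p = 0.915) and 0.089 without unloaded 1. Eomes (ENSMUSG00000032446, chromosome 9, 118478212 to 118486132, plus strand) had 4.84, 4.24 and 4.69 CPM in unloaded 1, 2 and 3, against 5.26, 5.55 and 4.70 CPM in control 1, 2 and 3. Only control 3 reached into the unloaded range. The log2 fold change was -0.17 ± 0.21 (SE; edgeR adjusted p = 0.935), and its sign was the same in all 15 alternative settings. Scaled for length, the ratio of the Tbx21 level to the Eomes level was 2.13, 1.86 and 1.41 in unloaded 1, 2 and 3, against 1.25, 1.38 and 1.32 in control 1, 2 and 3. These groups did not overlap, and this ratio too was chosen after the values were seen and has no test.

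Levels can be compared between genes only per length, here as CPM per kb of gene length. Nkg7 stood at 91.8 ± 9.72 in unloaded and 92.4 ± 10.8 in control marrow (SD, n = 3 each). Ccl5 stood at 19.5 ± 3.97 in unloaded and 16.5 ± 1.18 in control marrow, and Gzma at 7.42 ± 2.44 in unloaded and 3.75 ± 0.197 in control marrow. These levels separated from one another and from those of the genes below them in every library. Prf1 followed at 2.18 ± 1.14 in unloaded and 2.16 ± 0.349 in control marrow, and Tbx21 at 1.99 ± 0.456 in unloaded and 1.64 ± 0.183 in control marrow. Prf1 and Tbx21 overlapped in unloaded marrow and were narrowly apart in control marrow. Tbx21 lay above Eomes in all libraries. Eomes, Gzmb and Gzmm were between 1.11 and 1.59 in unloaded and between 1.08 and 1.24 in control marrow. Their libraries overlapped in control marrow, while in unloaded marrow Gzmb lay above Eomes and overlapped Gzmm. Fasl, at 0.419 ± 0.137 in unloaded and 0.482 ± 0.139 in control marrow, and Gzmk, at 0.311 ± 0.141 in unloaded and 0.241 ± 0.094 in control marrow, overlapped at the bottom.

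**Figure D3:**
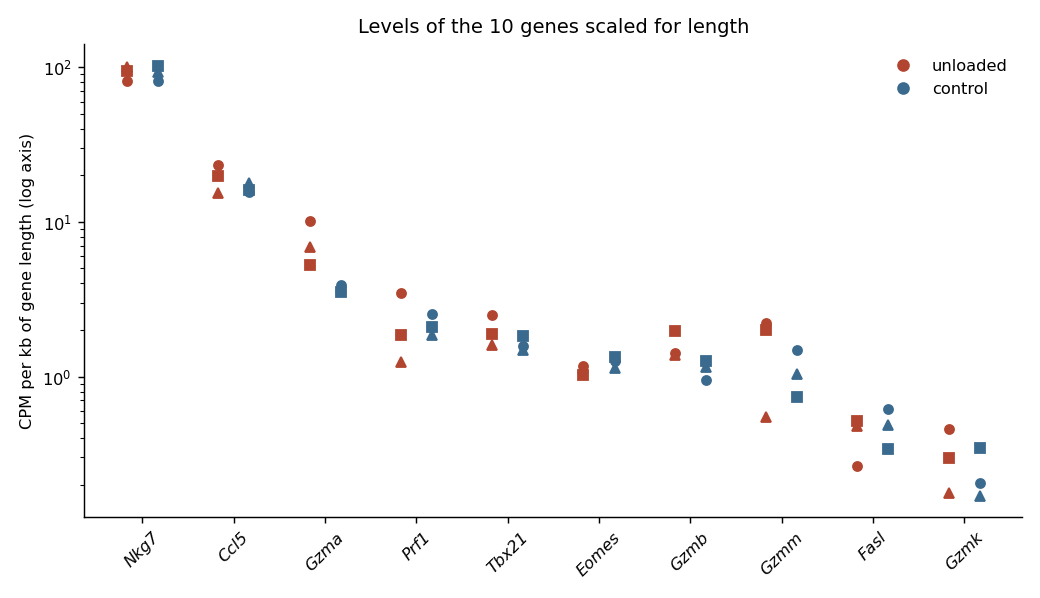
CPM per kb of gene length (log axis) of the 10 genes, ordered by control level, with unloaded libraries to the left of control libraries at each gene. Circles, squares and triangles are libraries 1, 2 and 3; Nkg7, Ccl5 and Gzma form the top of the order, and Fasl and Gzmk its bottom.

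The 9 tested genes did not share 1 profile over the 6 libraries. Unloaded 1 held the highest value of 5 of them and the lowest of 2, and unloaded 3 held the lowest of 3. As a measure of likeness, log2 CPM was centred on each gene's mean and compared with the mean profile of the 9 genes by the root mean square difference over the 6 libraries. Ccl5 was nearest to that mean, at 0.0954 on the log2 scale, followed by Tbx21 at 0.134. Gzmm was the farthest, at 0.532, and Gzma stood at 0.439. A flat profile would be at 0.171. The protein-coding genes nearest to it outside the set were Phc1 at 0.0421, Tep1 at 0.0430, Neurl4 at 0.0466, Tcof1 at 0.0496 and Ints1 at 0.0538. Of 12490 genes compared, 139 were nearer than Ccl5, although Ccl5 itself entered the mean.

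Fold changes of T cell and NK cell markers were mostly positive too. They were positive for 17 of 18 T cell markers (median 0.36, and 0.33 when unloaded 1 was left out), and 0 passed edgeR's test over all genes. At an unadjusted p under 0.05, met by 5.85% of all tested genes, stood 3 higher, Cd8b1, Trbc1 and Lck, and 1 lower, Cd4. Without unloaded 1 these counts were 5 higher and 0 lower, where 8.98% of all genes met that mark. Lck, the kinase of T cell receptor signalling, was named after its values were seen (log2 0.49 ± 0.17). The CD8 coreceptor gene Cd8b1 stood at 10.6, 13.5 and 7.72 CPM in unloaded 1, 2 and 3, against 5.03, 3.98 and 7.05 CPM in control 1, 2 and 3 (log2 0.99 ± 0.27, SE; edgeR adjusted p = 0.667). The T cell receptor constant gene Trbc1 had a log2 fold change of 0.71 ± 0.24, and Cd4, the lone negative member, -0.48 ± 0.20. The groups of Cd3e, a subunit of the T cell receptor complex, and Cd8a overlapped, with log2 fold changes of 0.58 ± 0.37 and 0.37 ± 0.24. Summed CPM of the 18 markers was 192, 226 and 143 in unloaded 1, 2 and 3, against 133, 142 and 165 in control 1, 2 and 3, so unloaded 3 lay among the controls.

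Fold changes were positive for 13 of 15 tested NK cell markers (median 0.35, and 0.43 when unloaded 1 was left out), and 0 passed edgeR's test. At an unadjusted p under 0.05, met by 5.85% of all tested genes, stood 4 higher, Cd244a, Klra4, Klra8 and Klra9, and 1 lower, Klra3. Without unloaded 1 these were 4 higher, with Klrd1 in place of Klra8, and 0 lower, where 8.98% of all genes met that mark. Klra8 (log2 0.67 ± 0.28, or 0.49 without unloaded 1) and Klra9 (0.95 ± 0.42) were named after their values were seen. Summed CPM of the list was 99.1, 92.7 and 90.2 in unloaded 1, 2 and 3, against 63.3, 64.5 and 75.2 in control 1, 2 and 3, with no overlap. That separation rested on 1 gene, Cd244a. Without it the sum was 62.0, 72.2 and 59.5 CPM in unloaded 1, 2 and 3, against 49.0, 46.4 and 59.7 CPM in control 1, 2 and 3, so that unloaded 3 lay just below control 3. The values of the receptor gene Cd244a, at 37.1, 20.6 and 30.7 CPM in unloaded 1, 2 and 3 and 14.4, 18.1 and 15.6 CPM in control 1, 2 and 3, did not overlap between groups. DESeq2 called it (adjusted p = 0.0207, 0.266% of all genes called), while its edgeR adjusted p was 0.524. Cd244a is also expressed by myeloid cells. The receptor gene Klra4 had a log2 fold change of 0.84 ± 0.29, Klra3 -1.08 ± 0.47 and Klra1 -0.25 ± 0.44, or -0.025 without unloaded 1. Since Klra genes are close paralogs, reads may be divided among them wrongly, and their values are uncertain. The groups of Ncr1 (log2 0.28 ± 0.27), which encodes the receptor NKp46, and of Klrb1c (log2 0.02 ± 0.20), which encodes NK1.1, overlapped.

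All 10 effector genes summed to 133, 131 and 129 CPM in unloaded 1, 2 and 3, against 114, 132 and 124 CPM in control 1, 2 and 3. Nkg7 alone made up most of each sum, and which marrow cells it came from was not tested. The effector genes other than Nkg7 summed to 58.9, 45.1 and 37.5 CPM in unloaded 1, 2 and 3, against 39.7, 38.5 and 38.5 CPM in control 1, 2 and 3. Divided by the summed T and NK markers of the same library, this gave 0.202, 0.142 and 0.161 in unloaded 1, 2 and 3, against 0.202, 0.187 and 0.160 in control 1, 2 and 3. The ratios overlapped, and their mean log2 difference was -0.13 beside a spread (SD) of 0.22 between libraries of the same group. The difference was -0.27 without unloaded 1, -0.22 without control 3 and -0.015 without unloaded 2. The spread of 0.22 was pooled within the groups over all 6 libraries and was not recomputed for these, and it is not an error of the difference. Leaving out control 1 gave -0.055. With the NK list alone as divisor the difference was -0.22, beside a spread of 0.21, and with the T cell list alone -0.079, beside 0.26. The part of lymphocyte markers in the higher Gzma value was not tested.

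**Figure D4:**
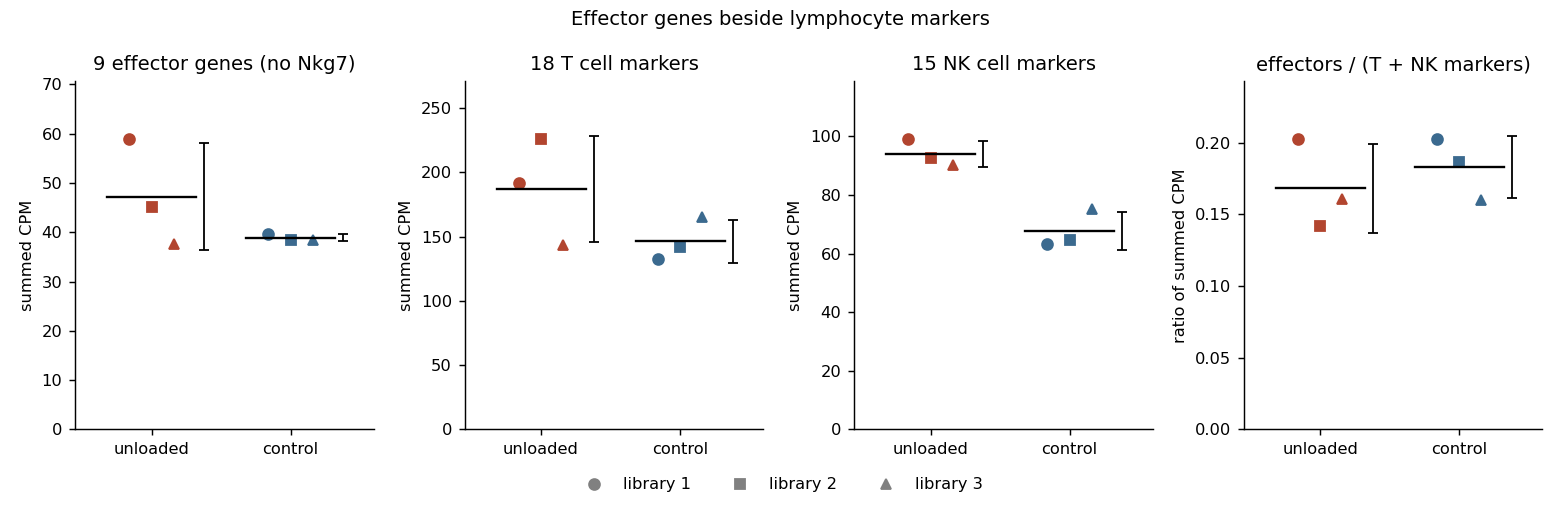
Summed CPM of the 9 effector genes without Nkg7, of 18 T cell markers and of 15 NK cell markers, and the ratio of effectors to both marker lists, in unloaded and control libraries. Points are libraries, bars are means and vertical bars are SD (n = 3 each); the NK marker sum separates the groups, and does so only with Cd244a in the list, while the other panels overlap.

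Some of the genes are also made by other marrow cells, whose markers had mostly negative fold changes. Plasmacytoid dendritic cells can express Gzmb, and 8 of their 8 markers (7 of 8 without unloaded 1) had a negative fold change, 3 of them at an unadjusted p under 0.05 (Spib, Siglech and, named after its value was seen, Klk1) and 0 past edgeR's test. Of all tested genes 3.18% were lower at that unadjusted p. Summed CPM of these 8 markers was 254 to 296 in unloaded and 355 to 384 in control libraries. Siglech, their sialic acid receptor, had a log2 fold change of -0.32 ± 0.12 and Spib, a transcription factor gene that B cells share, -0.58 ± 0.11 (DESeq2 adjusted p = 0.00469). Of 7 basophil and mast cell markers 6 were negative (median -0.21), or 4 without unloaded 1 (median -0.078), and 0 passed in either fit. Their sums were 352 to 423 CPM in unloaded and 449 to 464 CPM in control libraries. The basophil protease gene Prss34 had -0.31 ± 0.09 and the IgE receptor gene Fcer1a -0.47 ± 0.18, or -0.33 without unloaded 1. Cyp11a1 had 0.15 ± 0.18, or 0.057 without unloaded 1. Platelets carry CCL5, and 5 of their 6 tested markers were negative with 0 past edgeR's test. At an unadjusted p under 0.05 stood 4 of the 5, Ppbp, Treml1 and, named after their values were seen, Pf4 and Gp9. On the lower side 3.18% of all tested genes met that mark. Without unloaded 1 all 6 platelet markers were negative and 3 stood at that mark, Gp9 no longer among them, beside 8.98% of all genes. Summed CPM of the platelet markers was 71.5 to 89.0 in unloaded and 98.1 to 104 in control libraries. The platelet chemokine gene Ppbp had -1.32 ± 0.30 (DESeq2 adjusted p = 0.00543), Treml1 -1.07 ± 0.27 and Gp1ba 0.07 ± 0.27, which was -0.15 without unloaded 1. The part of these cells in the effector values was not tested.

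Among genes that make, hold or restrain granule contents, 6 of 13 were tested, 4 with a positive fold change, and 0 passed edgeR's test. At an unadjusted p under 0.05 stood 2, both higher, beside 2.67% of all tested genes on that side. Ctsc, which encodes the granzyme-activating protease cathepsin C and is also abundant in myeloid cells, stood at 208, 135 and 220 CPM in unloaded 1, 2 and 3, against 116, 129 and 113 CPM in control 1, 2 and 3. The groups did not overlap, though unloaded 2 was close to control 2. Its log2 fold change was 0.65 ± 0.17 (SE), or 0.57 without unloaded 1, and its adjusted p was 0.600 by edgeR and 0.0593 by DESeq2. It was called without the filter on low counts (edgeR adjusted p = 0.000194), in the fit that took little account of each gene's own spread. Ctsw, a cathepsin gene of cytotoxic lymphocytes, had 14.3, 14.8 and 11.5 CPM in unloaded 1, 2 and 3, against 9.89, 8.86 and 10.6 CPM in control 1, 2 and 3 (log2 0.47 ± 0.17; edgeR adjusted p = 0.802). Its groups did not overlap. Serpinb9, the inhibitor of granzyme B, was the other gene of the list with separated groups (log2 0.44 ± 0.25), and it was picked after its values were seen. Srgn, the gene of the granule proteoglycan serglycin, and Cst7, which encodes cystatin F, an inhibitor of cathepsin C, had -0.03 ± 0.10 and -0.0031 ± 0.13.

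Genes of granule release lay close to 0. All 11 were tested, 6 positive and 5 negative, with a median of 0.016, and 0 passed edgeR's test or had an unadjusted p under 0.05. Stxbp2, a syntaxin-binding protein gene needed for granule fusion, had 0.21 ± 0.12 on the log2 scale, or 0.086 without unloaded 1, and Vamp8 0.08 ± 0.10, or 0.040 without it. Lyst, the lysosomal trafficking regulator, had -0.23 ± 0.17, or -0.044 without unloaded 1, and Snap23 -0.10 ± 0.10, or -0.066 without it. Most of these genes are also used by the granules of neutrophils, so in marrow they do not report on lymphocytes alone.

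In the death receptor pathway 5 of 10 genes were positive and 5 negative, with a median of -0.00099 and 0 past edgeR's test. Tnf, a death ligand and inflammatory cytokine gene, stood at 15.9, 26.5 and 25.5 CPM in unloaded 1, 2 and 3, against 32.1, 32.2 and 30.3 CPM in control 1, 2 and 3. It was the gene of the list at an unadjusted p under 0.05 (log2 -0.48 ± 0.18, or -0.28 without unloaded 1; edgeR adjusted p = 0.804), and its groups did not overlap. On the lower side 3.18% of all tested genes met that mark. Tnfrsf10b, which encodes the mouse TRAIL receptor, was low, at 2.55, 3.18 and 2.04 CPM in unloaded 1, 2 and 3 and 1.72, 1.81 and 1.76 CPM in control 1, 2 and 3 (log2 0.55 ± 0.29). Casp8 had 0.07 ± 0.11 and Fadd, the adaptor gene, -0.14 ± 0.13.

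Among the transcription factors and cytokine receptors that feed the program 21 of 21 were tested, 11 positive and 10 negative, with a median of 0.040. None passed edgeR's test, and 2 were at an unadjusted p under 0.05, both higher, beside 2.67% of all tested genes on that side. Those were Il2rg, the shared receptor chain of IL-2 and IL-15 (log2 0.31 ± 0.13), and Tcf7, a factor gene of naive and memory T cells (0.53 ± 0.24, with unloaded 2 the highest library). Without unloaded 1 Il2rg had 0.23, and Tcf7 alone stood at that mark. Runx3, given here because of the promoter letters, had -0.011 ± 0.11. Zeb2, a factor gene of terminal effector maturation that monocytes also express, had -0.30 ± 0.14, or -0.16 without unloaded 1. Il12rb2, an IL-12 receptor chain, had -0.64 ± 0.34 at about the level of the lowest effectors, with 1.53, 1.41 and 0.864 CPM in unloaded 1, 2 and 3 and 1.89, 1.75 and 2.29 CPM in control 1, 2 and 3.

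Among chemokines and receptors of effector cells 4 of 10 genes were positive and 6 negative (median -0.088, and -0.011 when unloaded 1 was left out). By edgeR's test 0 passed. The 3 at an unadjusted p under 0.05, Cx3cr1, S1pr5 and the chemokine gene Ccl3, were all lower. On that side 3.18% of all tested genes met that mark. Ccl3 was named after its value was seen (log2 -0.40 ± 0.17). Without unloaded 1 it had -0.30 and no longer stood at that mark, while the other 2 did. Cx3cr1, the fractalkine receptor of mature effector cells and also of monocytes, stood at 35.5, 41.0 and 35.3 CPM in unloaded 1, 2 and 3, against 60.6, 59.4 and 57.8 CPM in control 1, 2 and 3. It was called by DESeq2 (adjusted p = 0.000861) but not by edgeR (adjusted p = 0.288; log2 -0.67 ± 0.11). S1pr5, the receptor by which mature NK cells leave the marrow, had 4.97, 3.42 and 1.91 CPM in unloaded 1, 2 and 3, against 6.12, 6.21 and 5.64 CPM in control 1, 2 and 3. Its log2 fold change was -0.80 ± 0.31 (edgeR adjusted p = 0.804) and -1.16 without unloaded 1, and its groups did not overlap. Ccr1, a chemokine receptor gene that myeloid cells also express, had 0.16 ± 0.12.

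**Figure D5:**
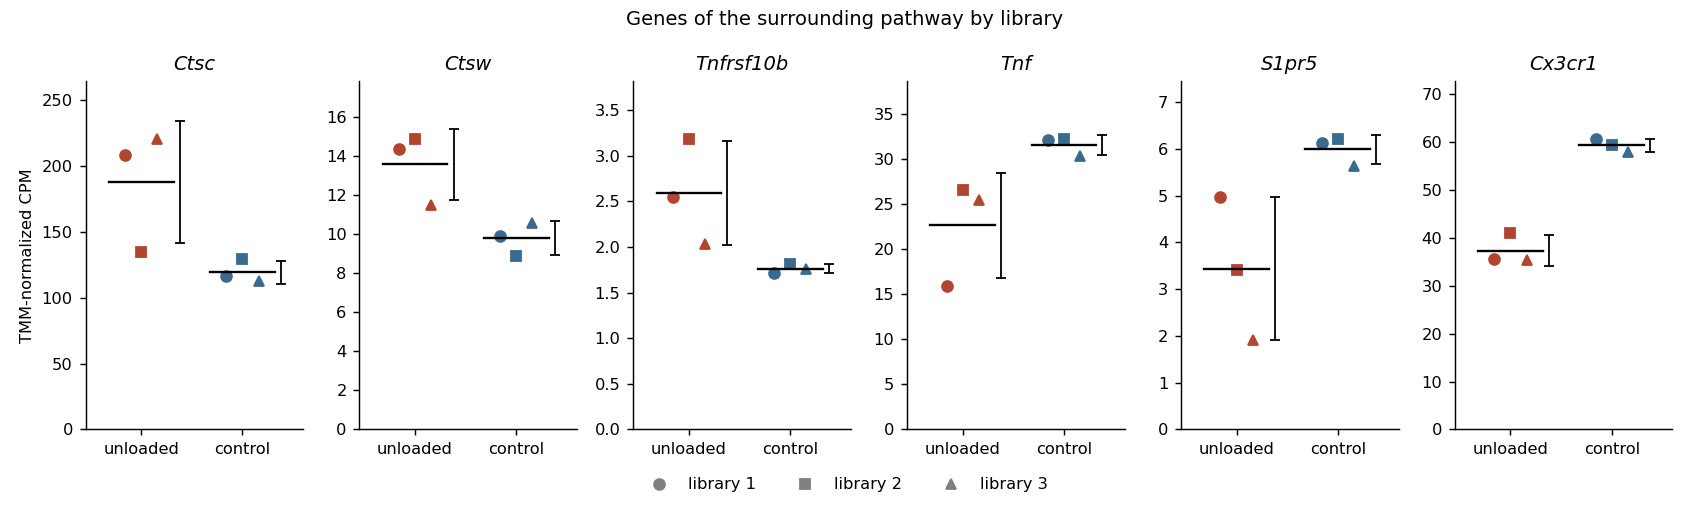
TMM-normalized CPM of Ctsc, Ctsw, Tnfrsf10b, Tnf, S1pr5 and Cx3cr1 in unloaded and control libraries. Points are libraries, bars are means and vertical bars are SD (n = 3 each); the first 3 genes are higher and the last 3 lower in every unloaded library, and none passed edgeR's test over all genes.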

How the data were processed

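RNA-seq of femoral marrow cells was analysed in 6 libraries, placed in the unloaded and control groups by title. The deposited table holds raw read counts per gene, with no normalization, and a gene length used as deposited. Per the submitters' processing notes the tools were CASAVA, HISAT2 2.0.5 and featureCounts 1.5.0-p3 and the build mm10. Annotation release, strand setting and treatment of multiply aligned reads are not stated there. Gene bounds of all 10 effector genes matched GENCODE M21. Except for Eomes, where 2.10% of runs recur elsewhere, none shared a run of 50 bases with transcripts of another gene.

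Genes were kept by filterByExpr, scaled by TMM and compared with edgeR 4.0.16 (glmQLFit, glmQLFTest) in R 4.3.3, with Benjamini-Hochberg adjustment over 15015 genes. The SE is the log2 fold change over the square root of F. Log2 CPM used a prior count of 2. A count of 3, the limit for a gene at 0, were 0.172 to 0.191 CPM, and limits and intervals of summed counts cover counting error only. Alternatives were DESeq2 1.42.0, limma-voom (limma 3.58.1), scaling by RLE or the upper quartile, other filters, each library left out and a replicate block. DESeq2 without unloaded 1 was added after seeing the data. Fits were tested on simulated data.

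The genes, lists and rules were chosen with earlier results of these data known. All 10 effector genes were named, with the 2 genes of smallest p in each direction of each list, 4 defining markers and the 5 nearest profiles, except that 1 list gene is not reported here. All 15 pairs of libraries differed beyond sampling noise (chi-square per degree of freedom 6.64 to 34.3). The lowest value was for control 3 with unloaded 2, a pair across groups.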

Additional observations from a re-analysis of the deposited data

How the results depend on the processing

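Over all genes edgeR called 0, DESeq2 40, edgeR without a low-count filter 183, and DESeq2 without unloaded 1 called 73. With 1 library left out edgeR called 0 to 5, the 5 arising without unloaded 1. Of the effector genes 0 were called, except for 1, Gzma, without a low-count filter. Calls of that fit take little account of each gene's own spread, since it gave many genes with high counts nearly equal SEs. Genes of the set at an unadjusted p under 0.05 numbered 1 under each alternative but 1: with a library left out the range was 1 to 3, and without unloaded 3 Gzma, Gzmm and Ccl5 made the 3. Among the surrounding pathway lists 0 genes were called by edgeR, 1 by DESeq2 (Cx3cr1), 1 by DESeq2 without unloaded 1 (Cx3cr1) and 2 without a filter (Ctsc and Cx3cr1). Of the cell marker lists DESeq2 called Cd244a, Spib and Ppbp, and edgeR without a filter called these and Cd8b1. Of 134 alternative fold changes of the 9 tested genes 14 turned their sign, all in Prf1, Fasl and Nkg7, and the cause was not tested. Prf1 was at -0.11 with limma-voom, -0.0050 without a filter, -0.083 with the replicate block and -0.49 with DESeq2 without unloaded 1. With 1 library left out it ran from -0.48 (without unloaded 1) to 0.29 (without unloaded 3), with -0.089 without control 3 and -0.020 without control 2. Fasl ran from -0.39 (without control 2) to 0.042 (without unloaded 1), with 0.023 without control 1 and 0.040 with DESeq2 without unloaded 1. Nkg7 ran from -0.095 (without control 1) to 0.072 (without unloaded 1), with 0.071 without control 2, 0.0065 with upper-quartile scaling and 0.070 with DESeq2 without unloaded 1. The log2 difference in the ratio of effectors to lymphocyte markers ran from -0.27 to -0.015 with 1 library left out, and with Cd244a left out of the NK list, a choice made after seeing the data, the ratios still overlapped. Same-numbered libraries did not deviate together (correlations of 0.031, -0.063 and 0.019). The largest correlation across groups was 0.094, for unloaded 2 with control 3. The labels give no batch, and these correlations cannot show that none was shared. The replicate block moved the genes called over all genes to 1, with 0 in the set. Counts of 4 to 51 limit Gzmk, Fasl, Gzmb and Gzmm.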

Other observations

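Receptor genes of gamma delta T cells, which can also carry granzymes, were low in both groups. Of 5 listed genes 4 were tested, all 4 with a positive fold change, and 0 passed edgeR's test. At an unadjusted p under 0.05 stood 1 of them, beside 5.85% of all tested genes. Without unloaded 1 these were 3 of 4 positive and 0 at that p. Trdc, the delta chain constant gene, stood at 3.95, 3.18 and 2.78 CPM in unloaded 1, 2 and 3, against 1.54, 2.17 and 2.17 CPM in control 1, 2 and 3, with no overlap (log2 0.75 ± 0.28, SE; edgeR adjusted p = 0.804). Tcrg-C1 had 0.63 ± 0.39. Of 8 macrophage markers 3 were positive and 5 negative, with 0 past edgeR's test or at an unadjusted p under 0.05. Without unloaded 1 all 8 were negative (median -0.28, against -0.054 with it), again 0 passed, and 3 were at an unadjusted p under 0.05, C1qa, C1qb and C1qc. That mark was met by 8.98% of all genes in that fit, and these 3 genes are neighbours on chromosome 4. Cd5l had 0.41 ± 0.35, or -0.12 without unloaded 1, and C1qb 0.08 ± 0.27, or -0.37 without unloaded 1. C1qc had -0.19 ± 0.19 and Mertk -0.23 ± 0.26.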
